A study of Mus musculus with 6 samples.

Results

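The miR-219a and miR-338 arms were 4 of the 1189 entries in the small RNA profiles of the mouse prefrontal cortex, and they were taken by name, not by their values. They are mmu-miR-219a-2-3p, mmu-miR-219a-5p, mmu-miR-338-5p and mmu-miR-338-3p, and all 4 had reads in every library. The PND group held 3 male C57BL/6 wild type mice of 18 months that had inhaled 1.5% isoflurane for 30 min and then had an exploratory laparotomy of 30 min under the same anesthetic, with lidocaine cream and povidone iodine put on the wound. The CON group held 3 mice of the same strain, sex, genotype and age with neither anesthesia nor operation before harvest. The anesthetic, the operation and the wound care therefore cannot be told apart. Per the paper's methods, mice had fear conditioning with foot shocks, an open field test and a Barnes maze. Tissue was taken after the maze test, under isoflurane and after perfusion with saline. The sequenced mice came from 13 per group, and the names of the samples give the age as 17M. The comparison addresses which miRNAs of the cortex differ in this model of postoperative neurocognitive disorder (PND), and the values are reads per 1000000 miRNA reads (CPM) from 1 library per mouse.

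Oligodendrocytes are the cells that wrap axons in myelin, and they arise from dividing precursors. In this lineage miR-219 and miR-338 are known to rise as precursors stop dividing and mature. They repress mRNAs that hold cells in the precursor state, among them Pdgfra, the receptor of a growth factor for these precursors, and Sox6 and Hes5, transcription factors that delay maturation. The tissue was not sorted, so fewer cells of a type and less RNA per cell of that type cannot be told apart in these levels.

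The sequences below are shown because the seed, bases 2 to 8 in capitals, sets which mRNAs an arm can pair with. RefSeq's table on GRCm38.p6 held 3 of the 4 mature arms, and none of the 3 shared its seed with another mature miRNA in that table. The 3 arms printed here carry 3 different seeds, and the arms of miR-338 differ from each other although they come from 1 hairpin.
miR-219a-5p: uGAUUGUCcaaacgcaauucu
miR-338-3p: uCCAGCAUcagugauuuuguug
miR-338-5p: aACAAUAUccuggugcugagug

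The hairpins show where the arms come from, with each arm that was in the table in capitals. Mir219a-2 is 97 bases long and lies on chromosome 2 of GRCm38 from 29845631 to 29845727 on the minus strand, outside protein-coding genes, with Mir219b antisense to it and Urm1 the nearest protein-coding gene at 629 bases. Mir219a-1 is 110 bases long and lies on chromosome 17 from 34024983 to 34025092 on the minus strand, over an exon of the lincRNA Gm26940, with Mir219c antisense to it. Mir338 is 98 bases long and lies on chromosome 11 from 120014765 to 120014862, in an intron of Aatk on the same strand, with Mir3065 antisense to it. Aatk codes for a kinase that is found in brain. The mature miR-219a-5p is present in both Mir219a-2 and Mir219a-1, so its reads could come from either, whereas miR-219a-2-3p belongs to Mir219a-2.
Mir219a-2: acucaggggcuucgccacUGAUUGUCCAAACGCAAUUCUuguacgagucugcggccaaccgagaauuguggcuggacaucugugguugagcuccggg
Mir219a-1: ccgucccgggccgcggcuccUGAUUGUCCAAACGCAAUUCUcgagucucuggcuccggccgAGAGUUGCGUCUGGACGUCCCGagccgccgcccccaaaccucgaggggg
Mir338: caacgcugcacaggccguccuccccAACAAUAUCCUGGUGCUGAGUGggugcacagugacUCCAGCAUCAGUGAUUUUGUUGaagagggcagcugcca

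The libraries held between 14849461 and 19471226 miRNA reads, and every PND library was deeper than every CON library. A level of 3 reads, the smallest taken as shown, was 0.154 to 0.202 CPM. CON mouse 2 stood apart from the others, with the lowest level for 244 of the 361 entries that had a mean of at least 10 CPM, and with miR-128-3p, an abundant miRNA of neurons, at 29.2% of its reads against 17.6% to 23.2% in the other 5 mice. PND mouse 3 had the highest level for 159 of the 361 entries, more than any other mouse. CON mouse 1 stood apart for epithelial miRNAs, which summed to 1646 CPM there and to 67.0 to 198 CPM elsewhere. Values without CON mouse 1, CON mouse 2 or both are given below where they differ most from those of all 6.

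The order of the 4 levels was the same in 6 of 6 mice, with miR-219a-2-3p highest, then miR-338-5p, miR-338-3p and miR-219a-5p. No range over the mice touched that of its neighbour in this order, and the 3 arms printed above are of nearly equal length, 21 or 22 bases. Together the 4 arms made up 0.203% to 0.245% of the miRNA reads. Their sum was 2274 ± 166 CPM (SD, n = 3) for PND and 2093 ± 112 CPM (SD, n = 3) for CON, with overlapping groups.

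miR-219a-2-3p, the 3p arm of Mir219a-2, was at 1335, 1445 and 1265 CPM in PND mice 1 to 3 and at 1179, 1189 and 1313 CPM in CON mice 1 to 3. The highest CON mouse lay above the lowest PND mouse, so the groups overlapped. This arm ranked 58 to 63 among all entries of its library and took 58.1% to 59.6% of the sum of the 4 arms in every mouse. Its coefficient of variation over the 6 mice was 7.74%, where counting error alone gives 0.682%.

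miR-219a-5p, the arm that carries the miR-219 seed shown above, was at 7.81, 9.20 and 8.07 CPM in PND mice 1 to 3 and at 5.24, 2.02 and 9.26 CPM in CON mice 1 to 3. The 3 PND mice lay close together, whereas the CON group held both the highest and the lowest of the 6 values. Behind these levels stood 152, 162 and 143 reads in PND and 80, 30 and 149 reads in CON. The 30 reads of CON mouse 2 give an exact Poisson 95% interval of 1.36 to 2.88 CPM, which covers counting error only and lies below the other 5 mice. The coefficient of variation over the mice was 40.6%, against 9.30% from counting error.

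miR-338-5p was at 647, 689.6 and 552 CPM in PND mice 1 to 3 and at 591, 643 and 616 CPM in CON mice 1 to 3. All 3 CON values lay inside the range of the PND group. miR-338-3p, the arm of the same hairpin with the CCAGCAU seed, was at 251, 311 and 302 CPM in PND mice 1 to 3 and at 254, 193 and 285 CPM in CON mice 1 to 3. CON mouse 2 had the lowest level, and the other 2 CON mice lay inside the range of the PND group. The coefficient of variation over the mice was 7.70% for miR-338-5p and 16.3% for miR-338-3p.

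**Figure D1:**
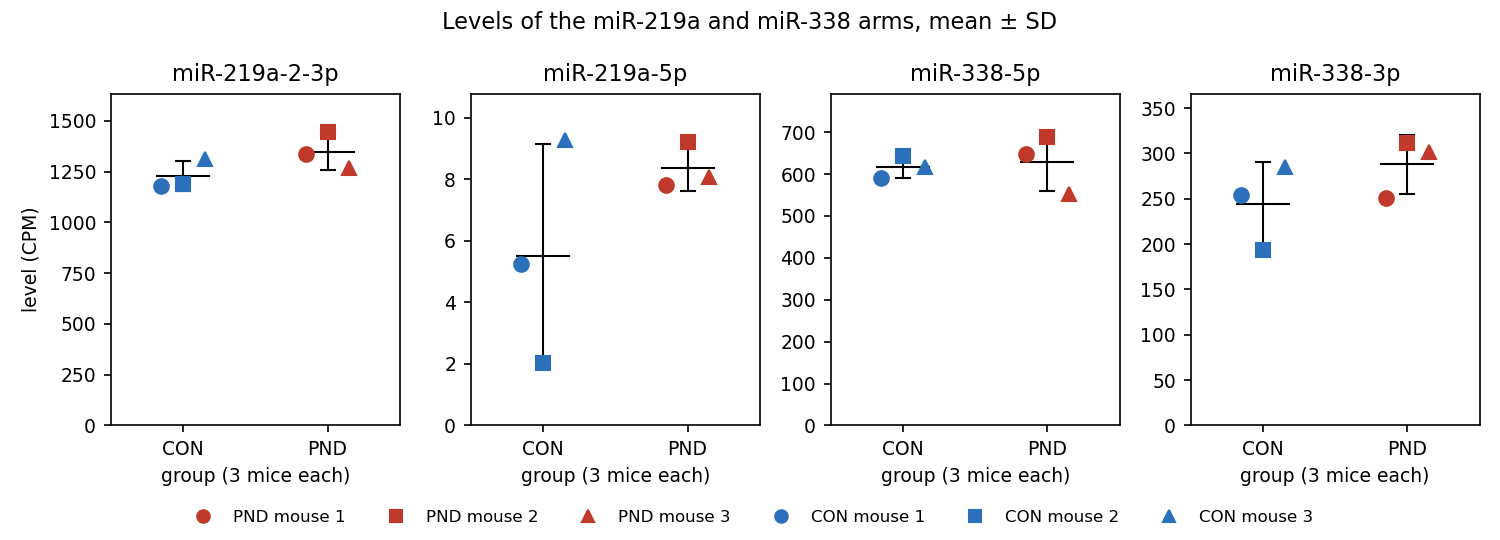
Level of each arm in CPM (vertical axes from 0) in the 3 CON mice (blue) and the 3 PND mice (red), with 1 point per mouse and the group mean ± SD in black. The groups overlap for all 4 arms, and CON mouse 2 is lowest for miR-219a-5p, at 2.02 CPM, and for miR-338-3p, at 193 CPM.

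Compared with the other entries, miR-219a-2-3p and miR-338-5p varied little between mice in CPM. The spread was not ranked at other scalings. Among the 361 entries that averaged 10 CPM or more, the SD of log2(CPM + 1) over the 6 mice was 0.11 for both, which ranked 86 and 89 from the lowest, and the median SD was 0.20. miR-338-3p ranked 232, with an SD of 0.25. miR-219a-5p, with a mean of 6.93 CPM, was below this level and had an SD of 0.68.

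No arm passed the test of PND against CON. In limma on log2(CPM + 1), fitted over all 1189 entries, 0 of the 4 had an unadjusted p under 0.05, where 5.13% of all entries did, and 0 of the 4 also passed a 2-fold change, where 0.0841% of all entries did. After Benjamini-Hochberg adjustment in limma 0 of the 4 stayed under 0.05, where 0.421% of all entries did. edgeR's quasi-likelihood test and DESeq2 on the recovered reads likewise gave 0 of the 4 an unadjusted p under 0.05. Among all entries tested, 50 of 1189 had one in edgeR and 28 of 1184 in DESeq2. The groups failed to overlap for 0 of the 4, where this held for 7.91% of all entries with PND higher and for 2.02% with CON higher.

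The point estimates lay above 0 for all 4 arms at this scaling, as they did for 776 of all 1189 entries. Among entries with a mean of at least 10 CPM this held for 286 of 361. Of the 4 arms, 2 changed sign under another scaling. The log2 fold change of miR-219a-2-3p, PND over CON, was 0.14 (standard error 0.099, 95% interval -0.095 to 0.37, adjusted p = 0.77 in limma), and it was -0.016 with DESeq2 size factors. That of miR-338-5p was 0.025 (standard error 0.11, 95% interval -0.24 to 0.29, adjusted p = 0.97 in limma), and it was -0.097 with TMM factors and -0.13 with DESeq2 size factors. The intervals of both leave out a 2-fold change in either direction. The exact permutation test, two-sided, gave p = 0.2 for miR-219a-2-3p and p = 0.8 for miR-338-5p, where 3 mice against 3 cannot go below 0.1.

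miR-338-3p had a log2 fold change of 0.25 (standard error 0.17, 95% interval -0.14 to 0.64, adjusted p = 0.77 in limma), with an exact permutation p of 0.3, two-sided. It was 0.091 without CON mouse 2 and 0.37 without CON mouse 3. miR-219a-5p had the largest estimate of the 4 arms, 0.69 (standard error 0.40, 95% interval -0.23 to 1.62, adjusted p = 0.77 in limma), with an exact permutation p of 0.4, two-sided. This estimate rested on single CON mice. It was 0.22 without CON mouse 2, and 1.11 without CON mouse 3, where the unadjusted limma p was 0.0221 and the adjusted p was 0.66.

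Most entries were shifted in the same direction, by an amount that depended on CON mouse 2 and on the scaling. The median log2 fold change of the 361 entries with a mean of at least 10 CPM was 0.14. It was 0.018 with TMM factors, -0.011 with DESeq2 size factors and 0.043 without CON mouse 2. The median of the 4 arms was 0.19, beside 0.052 over all 1189 entries. With TMM factors the log2 fold changes were 0.60 for miR-219a-5p, 0.13 for miR-338-3p, 0.014 for miR-219a-2-3p and -0.097 for miR-338-5p. In CPM and with TMM factors, miR-219a-2-3p lay within 0.01 of the median of the 361 entries.

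**Figure D2:**
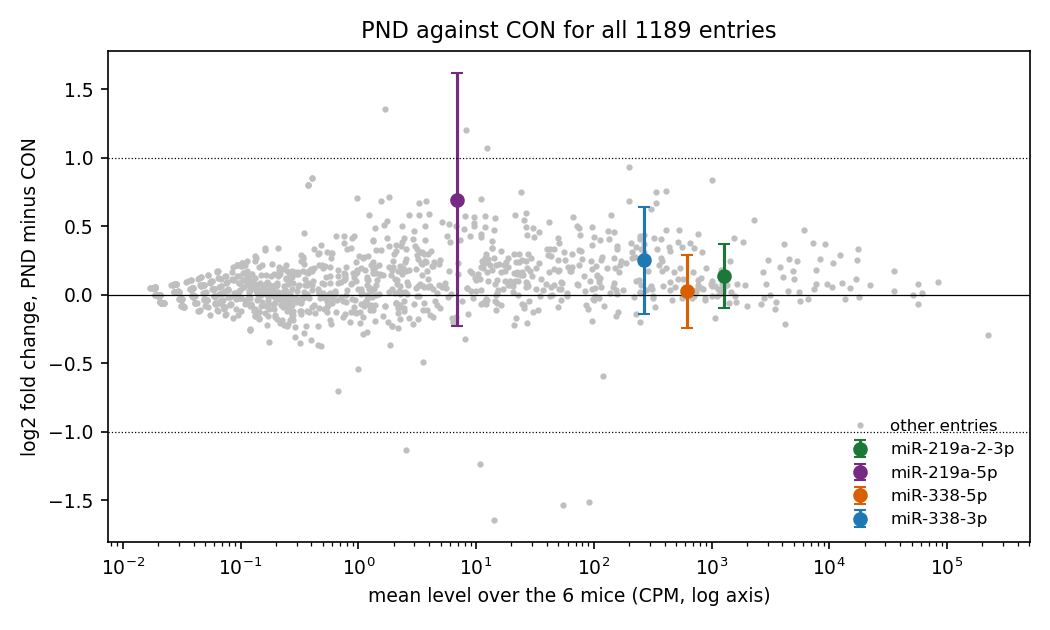
Log2 fold change of PND over CON on the log2(CPM + 1) scale (vertical axis) against the mean level over the 6 mice in CPM (log axis), for all 1189 entries in grey and the 4 arms in colour, with bars for the 95% interval from limma and dotted lines at a 2-fold change. All 4 intervals include 0, and the point of miR-338-5p lies below 0 with TMM factors.

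The ratio of arms within a library, in CPM, does not depend on how libraries are scaled to each other. Means and tests of the ratio used log2 of (CPM + 1), which lowers it where an arm is scarce. In Mir338 the 5p arm had more reads than the 3p arm in every mouse. The ratio of miR-338-5p to miR-338-3p was 2.58, 2.22 and 1.83 in PND mice 1 to 3 and 2.33, 3.33 and 2.16 in CON mice 1 to 3, with the highest ratio in CON mouse 2. The mean log2 ratio was 1.13 ± 0.25 (SD, n = 3) for PND and 1.35 ± 0.33 (SD, n = 3) for CON, and the difference of -0.23 lay within the spread (exact permutation test, two-sided, p = 0.5). Its value changed to -0.036 without CON mouse 2, -0.097 without PND mouse 3 and -0.35 without CON mouse 3, so its size depended on single mice.

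The gap was far wider for miR-219a. The ratio of miR-219a-2-3p to miR-219a-5p was 171, 157 and 157 in PND mice 1 to 3 and 225, 589 and 142 in CON mice 1 to 3. The PND ratios were alike, and CON mouse 2 had the highest ratio and CON mouse 3 the lowest. The mean log2 ratio was 7.17 ± 0.064 (SD, n = 3) for PND and 7.73 ± 0.82 (SD, n = 3) for CON, a difference of -0.56 (exact permutation test, two-sided, p = 0.4). With 1 mouse left out in turn the difference lay between -0.92 and -0.11 on the log2 scale, with the first value without CON mouse 3 and the second without CON mouse 2. Since miR-219a-5p can also come from Mir219a-1, these are ratios of mature arms, not of the products of 1 hairpin.

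**Figure D3:**
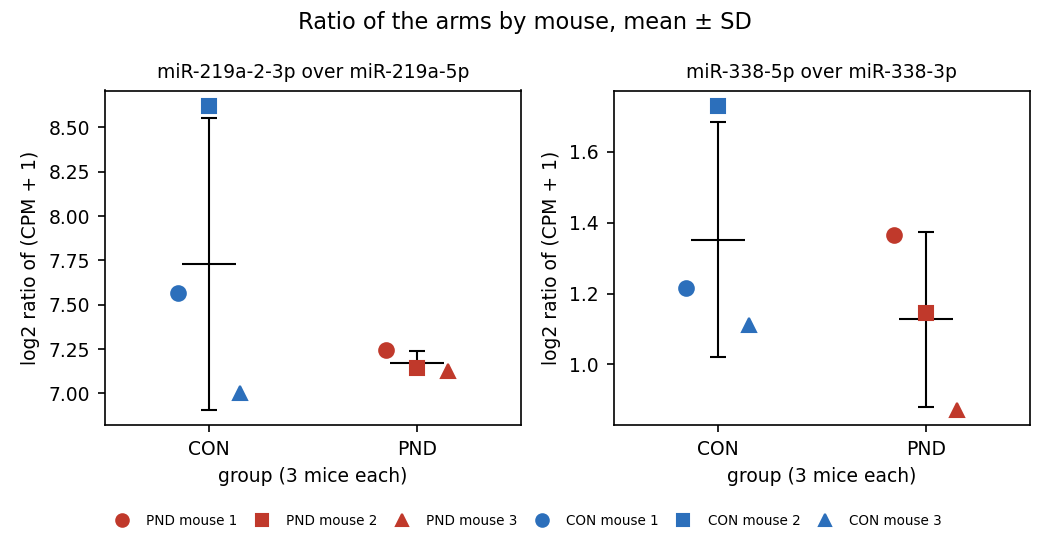
Log2 ratio of (CPM + 1) of the more abundant over the less abundant arm in each mouse, for miR-219a-2-3p over miR-219a-5p (left) and miR-338-5p over miR-338-3p (right), with the group mean ± SD in black (axes do not start at 0). CON mouse 2 has the highest ratio in both panels, and the groups overlap in both.

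Mir219a-1 has a 3p arm of its own, miR-219a-1-3p, shown in capitals in the second hairpin above. It was at 4.37, 3.01 and 3.61 CPM in PND mice 1 to 3 and at 3.67, 2.56 and 4.23 CPM in CON mice 1 to 3, of the same order as miR-219a-5p and far below miR-219a-2-3p. The groups overlapped, with a log2 fold change of 0.065 (standard error 0.21, adjusted p = 0.96 in limma). The ratio of miR-219a-5p to miR-219a-1-3p ran from 0.789 in CON mouse 2 to 3.06 in PND mouse 2.

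The other entries of the family come from the strands opposite these hairpins. miR-219b-3p of Mir219b is complementary to all 21 bases of miR-219a-5p, and miR-219c-5p of Mir219c is complementary to 20 bases in a row of miR-219a-1-3p. The pair below is shown for this complementarity, with the seeds in capitals.
miR-219c-5p: gGACGUCCagacgcaacucucg
miR-219a-1-3p: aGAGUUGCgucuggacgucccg
Reads of these opposite-strand entries were few. miR-219b-5p had 5, 1 and 0 reads in PND mice 1 to 3 and 3, 0 and 1 reads in CON mice 1 to 3. miR-219b-3p had 3 reads in PND mouse 3 and 0 in the other 5 mice, where a count of 0, taken as up to 3 reads, allows a level of up to 0.154 to 0.202 CPM. Whether the authors' assignment by position used the strand is not given in the sources used here, and miR-219c-3p and miR-3065 were not analysed here.

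miR-219c-5p was the entry of the family whose groups did not overlap, at few reads. It had 5, 5 and 6 reads in PND mice 1 to 3 and 1, 1 and 4 reads in CON mice 1 to 3. These were 0.257, 0.284 and 0.339 CPM against 0.065, 0.067 and 0.249 CPM, and every PND mouse lay above every CON mouse, as for 7.91% of all entries. The exact permutation p was 0.1, two-sided, the smallest that this design allows. limma gave a log2 fold change of 0.20 on the log2(CPM + 1) scale (standard error 0.086, unadjusted p = 0.0474, adjusted p = 0.77). The unadjusted p was 0.0644 with TMM factors in limma and 0.21 in edgeR's quasi-likelihood test on the reads.

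Co-variation over the mice was examined because arms that come from the same cells can differ between pieces of tissue that hold different amounts of white matter. Neither the white matter of the pieces nor the share of oligodendrocytes was measured. Among the 6 pairs of arms, miR-219a-5p and miR-338-3p had the highest r in CPM, with a Pearson r of 0.93 (exact permutation test over pairings, two-sided, n = 6 mice, p = 0.0208, adjusted p = 0.135 over 13 relations) and a Spearman rho of 0.77 (exact permutation p = 0.103). It rested in part on the CON mice. r was 0.67 without CON mouse 2, below 0.83 for miR-219a-5p with miR-219a-2-3p and 0.80 for miR-219a-2-3p with miR-338-5p in the same 5 mice, and 0.59 without CON mice 1 and 2. With DESeq2 size factors it was 0.85, below 0.90 for miR-219a-2-3p and miR-338-5p. For the deviations from the group means r was 0.90 (exact permutation within groups, p = 0.0278, adjusted p = 0.361). That p is the smallest that pairings within groups of 3 mice allow, so 1 relation alone could not pass the adjustment. Of the 13 relations in CPM over all 6 mice, 2 had an unadjusted p under 0.05, and 0 passed at 0.05 after adjustment.

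The arms of Mir338 showed no relation that passed the test. miR-338-3p and miR-338-5p had an r of -0.15 and a rho of -0.03 (exact permutation test, n = 6 mice, p = 0.782 for r). The sign of r depended on the mice. It was -0.70 without PND mouse 2 and CON mouse 2, -0.69 without PND mouse 2, 0.071 without CON mouse 2 and 0.23 without PND mouse 3. Both arms are cut from the same hairpin. Ranked by their r with miR-338-3p, miR-338-5p stood 308 of 360 entries, where the median r was 0.70. In CON mouse 2, miR-338-3p had its lowest level, 193 CPM, and miR-338-5p was at 643 CPM, above the other 2 CON mice.

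miR-219a-5p and miR-219a-2-3p had an r of 0.73 and a rho of 0.66 (exact permutation test, n = 6 mice, p = 0.0958 for r, adjusted p = 0.255). r was 0.51 without CON mice 1 and 2, and it was -0.092 with TMM factors. miR-219a-2-3p and miR-338-3p had an r of 0.66 and a rho of 0.49 (exact permutation test, n = 6 mice, p = 0.151 for r, adjusted p = 0.255), which was -0.076 with TMM factors. miR-219a-2-3p and miR-338-5p had an r of 0.58 and a rho of 0.71 (exact permutation test, n = 6 mice, p = 0.229 for r, adjusted p = 0.331), which was 0.015 without PND mouse 2 and CON mouse 1. Unlike the r values of the preceding pairs, it was higher at other scalings, at 0.85 with TMM factors (exact permutation p = 0.0153, adjusted p = 0.0993), 0.90 with DESeq2 size factors (exact permutation p = 0.0111, adjusted p = 0.0722) and 0.76 with totals that left out miR-128-3p. miR-219a-5p and miR-338-5p had an r of -0.04 and a rho of 0.09 (exact permutation test, n = 6 mice, p = 0.917 for r, adjusted p = 0.968). The most abundant arm of each hairpin, which holds most of the reads, therefore had no relation to the others that passed the adjustment at any of these scalings.

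**Figure D4:**
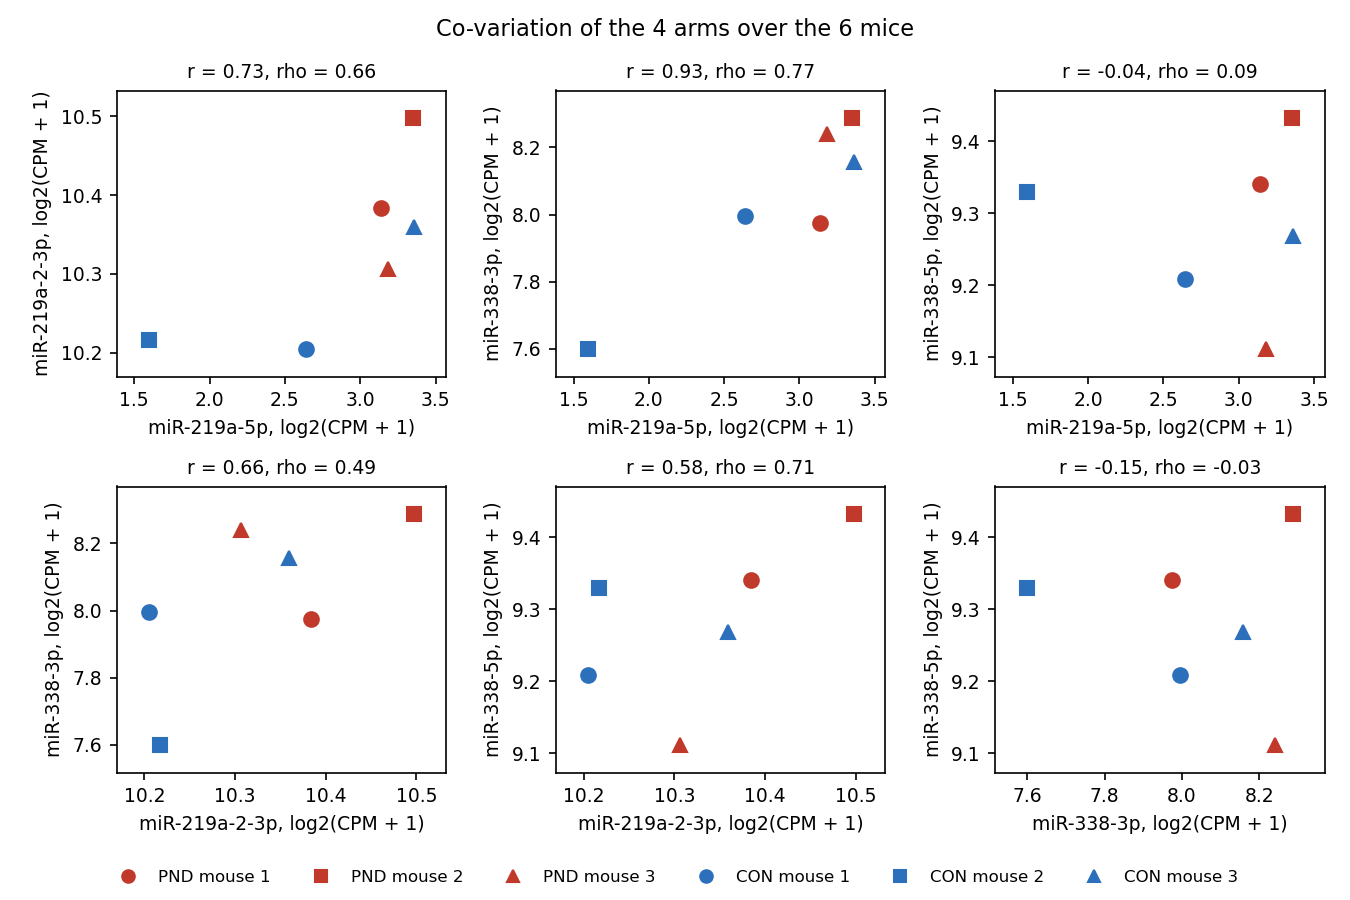
Each pair of arms over the 6 mice, with log2(CPM + 1) on both axes and 1 point per mouse (red PND, blue CON). In the panel of miR-219a-5p and miR-338-3p (r = 0.93) CON mouse 2 lies at the low end of both axes, and in the panel of the Mir338 arms (r = -0.15) no common direction is seen.

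The r of miR-219a-5p was of similar size with lists of several other cell types, and the differences between these r values were not tested. Against the mean log2(CPM + 1) of each marker list, its r was 0.83 for 12 other miRNAs described in the oligodendrocyte lineage, 0.92 for the endothelial and mural list, 0.83 for the choroid plexus list, 0.73 for the microglia and leukocyte list, 0.67 for the neuron list, 0.16 for the erythroid list and 0.06 for the epithelial list, each over 6 mice. In order, the rho values were 0.49, 0.77, 0.31, 0.49, 0.03, -0.37 and 0.37. The smallest exact permutation p was 0.0167, for the endothelial and mural list, with an adjusted p of 0.135. Without CON mice 1 and 2 the r values lay between -0.81 and 0.46, and that of the oligodendrocyte lineage list was -0.06. That list holds miRNAs described as acting in the lineage, with no direction set for them, and it does not measure oligodendrocyte content. It shares miR-145a-5p with the endothelial and mural list.

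The means of the lists were low together in CON mouse 2, although not every miRNA in them was. In that mouse the mean log2(CPM + 1) of the list differed from the mean of the 6 mice by -0.44 for the oligodendrocyte lineage, -0.26 for neurons, -0.33 for microglia and leukocytes, -0.37 for endothelial and mural cells and -0.67 for choroid plexus. On the same scale miR-219a-5p differed from its mean by -1.28 there, miR-338-3p by -0.44 and miR-219a-2-3p by -0.11, whereas miR-338-5p lay 0.05 above its mean. The sum of the neuron list, however, was highest in CON mouse 2, at 317886 CPM. Most of that sum was miR-128-3p, a member of the list, at 292349 CPM and 0.41 above its mean. The part of miR-128-3p in these values was tested only by leaving it out of the library total. The r of miR-338-3p with miR-128-3p over the 6 mice was -0.96, and -0.94 with totals that left miR-128-3p out. That of miR-219a-5p was -0.84 and -0.82, that of miR-219a-2-3p was -0.55 and 0.17, and that of miR-338-5p was 0.31 and 0.72. These are descriptions over 6 libraries, in which all levels share the total.

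**Figure D5:**
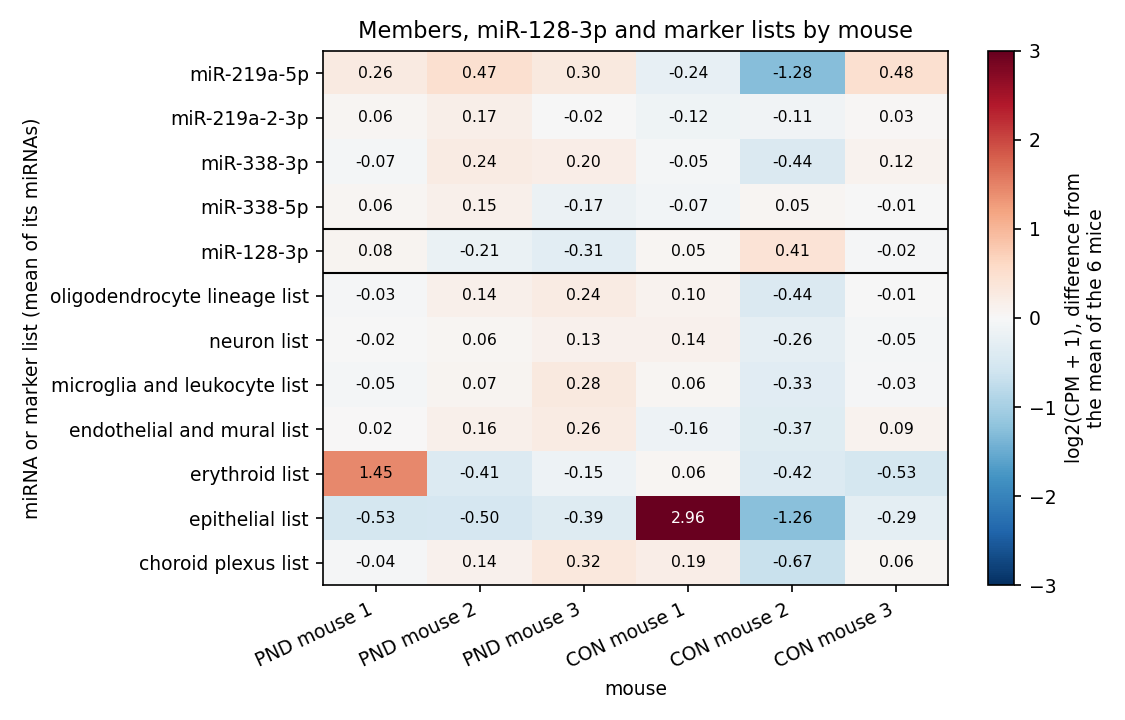
Difference of log2(CPM + 1) from the mean of the 6 mice (colour and printed value), for the 4 arms, miR-128-3p and the mean of each marker list (rows) in each mouse (columns). CON mouse 2 is below the mean in 3 of the 4 arms and in every list, and above it for miR-338-5p and miR-128-3p.

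The entries whose pattern over the 6 mice was most like the mean log2(CPM + 1) of the 4 arms, by Pearson r among 358 other entries with a mean of at least 10 CPM, were miR-378a-5p and miR-532-5p (0.95 each), and miR-299a-3p, miR-145a-5p and let-7i-3p (0.94 each). miR-532-5p, for example, was at 979, 1041 and 999.8 CPM in PND mice 1 to 3 and at 936, 866 and 1069 CPM in CON mice 1 to 3, with the lowest level in CON mouse 2. The least like were miR-128-3p (-0.83), miR-351-5p (-0.78), miR-1981-3p (-0.75), miR-135a-2-3p (-0.74) and miR-671-3p (-0.69). A high r was common, since the median over the 358 entries was 0.61 and 83.2% were above 0. Without CON mouse 2 the median was 0.0016 with 50.3% above 0, the 5 most like entries lay between 0.72 and 0.87, and the 5 least like between -0.91 and 0.24.

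In the oligodendrocyte lineage list, 1 of 12 measured miRNAs rose in PND at an unadjusted p under 0.05 in limma and 0 fell, where 5.13% of all entries passed in either direction, and 0 had an adjusted p under 0.05. The one that passed was miR-145a-5p, which is also a marker of mural cells, at 234.4, 259.6 and 264 CPM in PND mice 1 to 3 and 203, 165 and 233.9 CPM in CON mice 1 to 3. Every PND mouse lay above every CON mouse, as for 7.91% of all entries, although PND mouse 1 and CON mouse 3 were nearly level, with a log2 fold change of 0.34 (standard error 0.15, unadjusted p = 0.0489, adjusted p = 0.77 in limma). Its unadjusted p was 0.0851 with TMM factors in limma. With 1 mouse left out in turn the unadjusted limma p ran from 0.0184 (without CON mouse 3) to 0.134 (without PND mouse 3). It was under 0.05 only without CON mouse 3, and the log2 fold change ran from 0.21 to 0.46. The call lay close to the limit and depended on which mice entered and on the scaling. The list had a median log2 fold change of 0.28, and 0.061 without CON mouse 2, with 10 of 12 above 0 in both cases, beside 0.14 for all entries of at least 10 CPM. miR-7a-5p and miR-138-5p, for example, had log2 fold changes of 0.33 and 0.32 and unadjusted limma p-values of 0.223 and 0.207, and both were lowest in CON mouse 2, at 9771 and 268 CPM.

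Markers of the other cells of the tissue gave no adjusted p under 0.05 in limma in any list. An unadjusted p under 0.05 was found for 5.13% of all entries. By list the number was 0 of 7 for neurons, 1 of 5 for microglia and leukocytes (miR-142a-5p) and 1 of 4 for endothelial and mural cells (again miR-145a-5p). It was 0 of 3 for the erythroid list, 0 of 8 for the epithelial list and 0 of 5 for choroid plexus. miR-142a-5p had 36, 36 and 43 reads in PND mice 1 to 3 and 25, 11 and 20 reads in CON mice 1 to 3. The groups overlapped for its other arm, miR-142a-3p. With 1 mouse left out in turn, the number for microglia and leukocytes was 1 of 5 without CON mouse 1 and 0 of 5 without any other mouse. In the same order, the median log2 fold changes of the lists were 0.11, 0.25, 0.30, 0.34, -0.97 and 0.32. That of the epithelial list rested on CON mouse 1 and was 0.20 without it. Without CON mouse 2 the medians of the neuron, microglia and leukocyte and choroid plexus lists were -0.024, 0.077 and -0.0016. The neuron list, most of it miR-128-3p in every library, summed to 213801 to 317886 CPM over the 6 libraries. The choroid plexus list summed to 736 to 1224 CPM.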

How the data were processed

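For each of the 6 mice the authors deposited 1 CPM value per miRNA, which the study calls TPM. Per its methods, reads of 18 to 40 bases were kept, aligned with Bowtie (version 0.12.2 in the submitters' processing notes, which name mm8 and mm9 without a role), assigned by miRBase position, scaled by TMM and divided by the total. The deposited columns each sum to 1000000 within rounding, so no TMM scaling is left in them. The labels name a kit for total RNA and the methods a small RNA kit. Divided by the value of 1 read, 100% of the values came out whole within 0.1 reads, so reads were recovered for depth and for edgeR 4.0.16 and DESeq2 1.42.0, which served as alternatives. No molecular identifiers are described, so the Poisson interval covers counting error only. The limma intervals of the fold changes rest on the spread between mice.

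PND was compared with CON by limma 3.58.1 (eBayes with trend, under R 4.3.3) fitted to log2(CPM + 1) over the 1189 entries, with a pseudocount of 1 and Benjamini-Hochberg adjustment. Fold changes on this scale are understated for low entries. Single values and relations over mice used exact permutation tests in Python 3.11.15 with scipy 1.17.1. On simulated reads of 1189 entries, limma was run with both limits, an unadjusted p under 0.05 and a change over 2-fold. It called 97 of 200 entries changed 4-fold (61 of 61 with at least 10 CPM) and 0 of 989 unchanged ones. Smaller changes and a shift of a whole library were not simulated. The libraries are from separate mice, and none was a copy of another in its group (chi-square over degrees of freedom 120.5 to 651).

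The members and lists were chosen with earlier results of these data known. Other miRNAs named are the miR-219 family, marker lists as counts (with values where 1 moves with a result or a library) and the 5 most and least like the 4 arms. miR-532-5p, miR-7a-5p and miR-138-5p were picked as examples after their values were seen. miR-297c-5p, the last of the 13 lineage miRNAs, was not analysed here. Sequences are RefSeq's (GRCm38.p6), which matched 997 of the 1189 entries by name, and gene positions are GENCODE M21's.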

Additional observations from a re-analysis of the deposited data

How the results depend on the processing

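No member had an adjusted p under 0.05 in any setting, and miR-219a-5p without CON mouse 3 (unadjusted p = 0.0221 in limma) was the single case under 0.05 unadjusted. Its log2 fold change ran from 0.22 (without CON mouse 2) to 1.11 when mice were left out in turn, and the filter at 10 CPM gave it no value, as its mean is below that. miR-338-3p stayed between 0.091 and 0.37 in every setting. The log2 fold change of miR-219a-2-3p turned to -0.016 with DESeq2 size factors and -0.019 in DESeq2. That of miR-338-5p turned to -0.097 with TMM factors, -0.13 with DESeq2 size factors, -0.060 with totals without miR-128-3p, -0.098 in edgeR and -0.13 in DESeq2, and ran from -0.043 to 0.12 when mice were left out in turn. The cause was not tested.

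The number of entries with an unadjusted p under 0.05 was 61, and 5 at a mean of at least 10 CPM (361 entries tested), 28 in DESeq2 and 31 to 91 with a mouse left out (31 without PND mouse 2, 40 without CON mouse 2, 91 without CON mouse 1). Past both limits it was 1, and 22 with a pseudocount of 0.1, 0 at 10 CPM, 32 in edgeR, 11 in DESeq2 and 0 to 1 with a mouse left out. With an adjusted p under 0.05 in limma it was 5, and 0 at 10 CPM and 0 to 3 with a mouse left out. The split of unadjusted calls was 48 higher and 13 lower in PND, and 34 and 18 with TMM factors. The replicate numbers were not shown to pair the mice. Same-numbered libraries had correlations of -0.13, 0.12 and 0.51 in their deviations, and the other pairs ran from -0.55 to 0.50. With so few libraries this check cannot decide. With the replicate number as a block 56 entries had an unadjusted p under 0.05, 2 passed both limits and 0 had an adjusted p under 0.05 in limma, with none of the 4 arms among the 56.

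Leaving out each mouse and DESeq2 size factors were added for the relations, and leaving out each mouse and TMM factors for the lists, after the values were seen. The median log2 fold change turned to -0.0080 for the neuron list with TMM factors and -0.024 without CON mouse 2, to -0.0016 for the choroid plexus list without CON mouse 2 and to 0.20 for the epithelial list without CON mouse 1. With single mice left out it ran from -0.024 to 0.31 (neuron), -1.91 to 0.20 (epithelial) and -0.0016 to 0.50 (choroid plexus). With TMM factors and with DESeq2 size factors r was -0.092 and -0.18 for miR-219a-5p and miR-219a-2-3p, -0.076 and -0.042 for miR-219a-2-3p and miR-338-3p, -0.030 and -0.44 for miR-219a-5p and the neuron list, and -0.033 and -0.051 for miR-219a-5p and the epithelial list. For miR-219a-2-3p and miR-338-5p it was 0.85 and 0.90. The erythroid list gave -0.11 for deviations from the group means. With single mice left out r ran between -0.37 and 0.40 for miR-219a-5p and miR-338-5p and between -0.69 and 0.23 for the Mir338 arms. For miR-219a-5p and the lists it ran between -0.072 and 0.89 (oligodendrocyte lineage), -0.59 and 0.85 (neuron), -0.050 and 0.83 (microglia and leukocyte), -0.26 and 0.32 (erythroid), -0.93 and 0.98 (epithelial) and -0.23 and 0.93 (choroid plexus), each lowest without CON mouse 2. The cause was not tested. The entries of miR-219b and miR-219c lay near the floor of 3 reads, which limits what this depth can show for them.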
